A study of Mus musculus with 86 samples.

Results

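Total RNA levels were compared in the cell bodies of CAD cells that had lost TDP-43 and of CAD cells that still made it. The comparison uses 6 of the 86 samples of the series, 3 wild-type and 3 knockout libraries of CAD soma, taken by cell line, compartment and doxycycline label. CAD cells are a mouse line of catecholaminergic central nervous system cells. All 6 libraries came from a clonal line in which both endogenous alleles of Tardbp, the gene for TDP-43, had been inactivated with CRISPR/Cas9, and in which a single-copy, HA-tagged Tardbp transgene resistant to the guide RNAs was driven by a doxycycline-off promoter. The wild-type cells were left without doxycycline, so their TDP-43 came from the transgene. The knockout cells received doxycycline for 48 h, at 2 µg/mL by the sample labels, although the study's methods give another concentration. Both groups were differentiated by removal of serum on porous membranes, and RNA was taken from the upper side, which holds the cell bodies. No cells without the transgene were treated with doxycycline, so loss of TDP-43 and the drug itself cannot be told apart. With 53664 genes given an estimate, 17010 passed the filter on low counts and were tested.

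TDP-43 is a mainly nuclear RNA-binding protein of the hnRNP family that binds UG-rich RNA. It blocks the use of cryptic exons, takes part in the choice of polyadenylation sites and mRNA transport, and binds the 3′ UTR of its own transcript to limit its level. Its loss from the nucleus of neurons is a hallmark of amyotrophic lateral sclerosis (ALS) and of a large share of frontotemporal dementia (FTD).

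TDP-43 binds GU repeats, and genes with a GU run of at least 30 bases in the 3′ UTR held a larger share of rises than other genes (counts are given with the plot of GU content). Runs from transcripts with large changes, chosen after seeing the data, are shown because they are the letters that this result rests on. The run is in capitals, 5′ to 3′ on the transcript's strand with T for U, cut to 30 bases.
Diaph3: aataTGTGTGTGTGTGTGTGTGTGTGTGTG
Rab3c: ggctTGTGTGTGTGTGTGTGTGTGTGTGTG
Adam19: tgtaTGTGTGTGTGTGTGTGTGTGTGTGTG
These bases lie in annotated 3′ UTRs of GRCm38, at chr14:86655702-86655731 for Diaph3, chr13:110056838-110056867 for Rab3c and chr11:46144754-46144783 for Adam19. The whole runs are 62, 43 and 52 bases long. Diaph3 and Rab3c rose in the knockout cells and Adam19 fell.

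The libraries held 25009904 to 30026966 estimated counts. Pearson correlations of log2 CPM (read counts scaled to library size, with TMM factors) were 0.983 to 0.991 within groups and 0.968 to 0.978 between them. The first principal component (46.5% of the variance) parted the genotypes, and the second (27.4%) put replicate 1 of both groups at the same end. Neuronal markers summed to 2718 to 2890 CPM in wild-type and 2655 to 2999 CPM in knockout libraries, although Nefl and Nefm, neurofilament genes, were under 1 CPM in all 6. Of the catecholaminergic markers, Th, Dbh, Hand2 and others were present, and Slc18a2, the vesicular monoamine transporter of brain neurons, was under 1 CPM throughout. Markers of glia, fibroblasts, endothelium and epithelium summed to at most 43.2 CPM per list. The fibroblast list summed to 32.6 to 41.2 CPM in wild-type and 16.4 to 16.7 CPM in knockout libraries, with 2 of 8 markers called lower, none higher and Col3a1 and Lum under 1 CPM in every library. Thy1, which neurons also express, had the highest mean of that list (14.98 CPM over all 6 libraries). Nothing in the sources used here says whether the 3 libraries of a group came from separate cultures, so p-values measure the spread between these libraries, which may be technical.

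Tardbp itself was checked first. Its level was 646, 710.4 and 638 CPM in wild-type replicates 1, 2 and 3 and 114, 112 and 122.8 CPM in the knockout replicates. Every knockout library lay far below every wild-type library, a 5.72-fold lower level (log2 fold change -2.52, SE 0.0720, adjusted p = 2.75e-08 by edgeR's quasi-likelihood test, as for all adjusted p-values here). Tardbp lies at chr4:148612382-148627019, minus strand. Reads that remained may come from the inactivated endogenous alleles or from the transgene, which the gene-level counts cannot separate.

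At a false discovery rate (FDR) of 0.01, 1793 genes were higher in knockout soma (10.5% of those tested) and 1803 were lower (10.6%). The groups did not overlap for any called gene, as was the case for 45.2% of all genes tested. The rises were the larger changes: 492 genes rose and 312 fell by at least 2-fold, and the median size of a called change was 0.62 on the log2 scale for rises and 0.54 for falls. Under 1.5-fold lay 46.2% of the rises and 55.7% of the falls. The median log2 fold change of all genes tested was 0.00, and all changes are relative to that scaling. The counts depended on single libraries: without knockout replicate 2 they were 1142 higher and 1171 lower, without wild-type replicate 2, 1148 lower, and without wild-type replicate 3, 1193 lower. Without replicate 1 of both groups, an alternative chosen after seeing the data, 1656 were higher and 1583 lower.

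**Figure D1:**
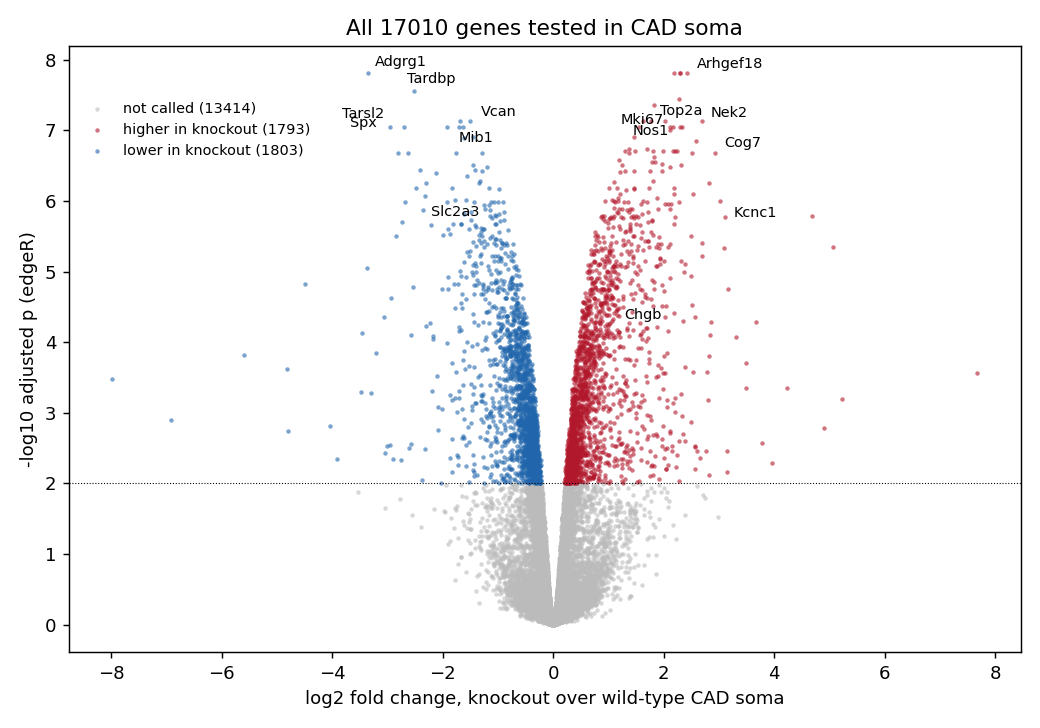
Log2 fold change (knockout over wild-type CAD soma) against -log10 adjusted p for all 17010 genes tested, with called genes in red (1793 higher) and blue (1803 lower) and uncalled genes in grey. Adgrg1 and Tardbp have the smallest adjusted p-values of the falls, and Arhgef18 is among the rises with the smallest.

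Among genes with a mean of at least 5 CPM in their higher group, the 20 largest rises ranged from a log2 fold change of 2.31 to 3.11. Kcnc1, which encodes the fast voltage-gated potassium channel Kv3.1, led them, from 1.59, 1.47 and 0.823 CPM to 11.4, 11.5 and 10.8 CPM (SE 0.188, adjusted p = 1.70e-06). Cog7, a subunit of the complex that tethers vesicles at the Golgi, went from 7.57, 5.12 and 6.001 CPM to 45.2, 48.5 and 49.4 CPM. That is a 7.65-fold rise, with no overlap of the groups (log2 fold change 2.93, SE 0.126, adjusted p = 2.07e-07). Arhgef18, a guanine nucleotide exchange factor for small GTPases, was at 111, 99.97 and 108 CPM in wild-type and 559.9, 585 and 572 CPM in knockout libraries. Replicates of either group of Arhgef18 differed little beside the 5.39-fold gap between them (adjusted p = 1.57e-08). Sctr, the secretin receptor, rose from 7.07, 6.14 and 4.87 CPM to 49.05, 40.9 and 38.6 CPM (adjusted p = 5.54e-07). Mttp, which loads lipid onto apolipoprotein B, rose by 2.70 on the log2 scale, and Adamtsl2, a secreted matrix glycoprotein, by 2.58. Hmcn2, which encodes an extracellular hemicentin, rose by 3.08, with knockout libraries at 9.27, 5.91 and 6.46 CPM. The transcription factor gene Myb rose by 2.38. Mitotic genes made up 5 of the 20: Nek2 (2.69), Pbk (2.69), Bub1b (2.51), Mki67 (2.33) and Gtse1 (2.31), a group described after seeing the ranking. Togaram2 and Ccdc187 rose by 2.49 and 2.38. Noncoding or unclassified transcripts among the 20 were Gm49768, Gm45719, 1300002E11Rik and Gm37499, at log2 fold changes of 2.499 to 3.01. The pseudogene Gm10925 lies in a nuclear copy of mitochondrial DNA and may share reads with the mitochondrial genome. It was at 567, 129.6 and 122 CPM in wild-type and 2729, 659.6 and 2431 CPM in knockout libraries. Its value is uncertain, and the call (adjusted p = 0.00769) was lost with length-scaled counts (adjusted p = 0.0122) and without any 1 of 4 of the 6 libraries (adjusted p = 0.0133 to 0.0334).

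The 20 largest falls ranged from -3.37 to -1.99. Adgrg1, an adhesion G protein-coupled receptor also known as GPR56, was at 224, 227 and 269 CPM in wild-type and 22.2, 23.7 and 24.5 CPM in knockout libraries. It was thus 10.2-fold lower (log2 fold change -3.35, SE 0.0857, adjusted p = 1.57e-08). Drd1, the dopamine D1 receptor, fell from 12.4, 14.2 and 15.98 CPM to 3.93, 3.04 and 3.73 CPM (adjusted p = 3.02e-06). Spx, which encodes the neuropeptide spexin, had a log2 fold change of -2.95. Lrrc4c and Slitrk1, transmembrane proteins of developing synapses, fell by 2.69 and 2.48. The receptor phosphatase gene Ptprb fell by 2.63 and Eda, which encodes ectodysplasin, by 2.20. Tarsl2, a threonyl-tRNA synthetase paralogue, went from 18.3, 19.2 and 16.9 CPM to 2.61, 2.94 and 2.79 CPM, and the libraries of each group lay close together (adjusted p = 9.13e-08). Enzymes of lipids and sugar chains were also present: Cers3, a ceramide synthase (-2.84), Pltp, a phospholipid transfer protein (-2.30), Chst7, a sulfotransferase (-2.54), and Gcnt2, a glycan branching enzyme (-2.11). Upk1a (-2.73), Col14a1 (-2.40), Dnhd1 (-2.36), Gm33280 and Gm42559 (-2.30) were also in the set, as was Tardbp.

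**Figure D2:**
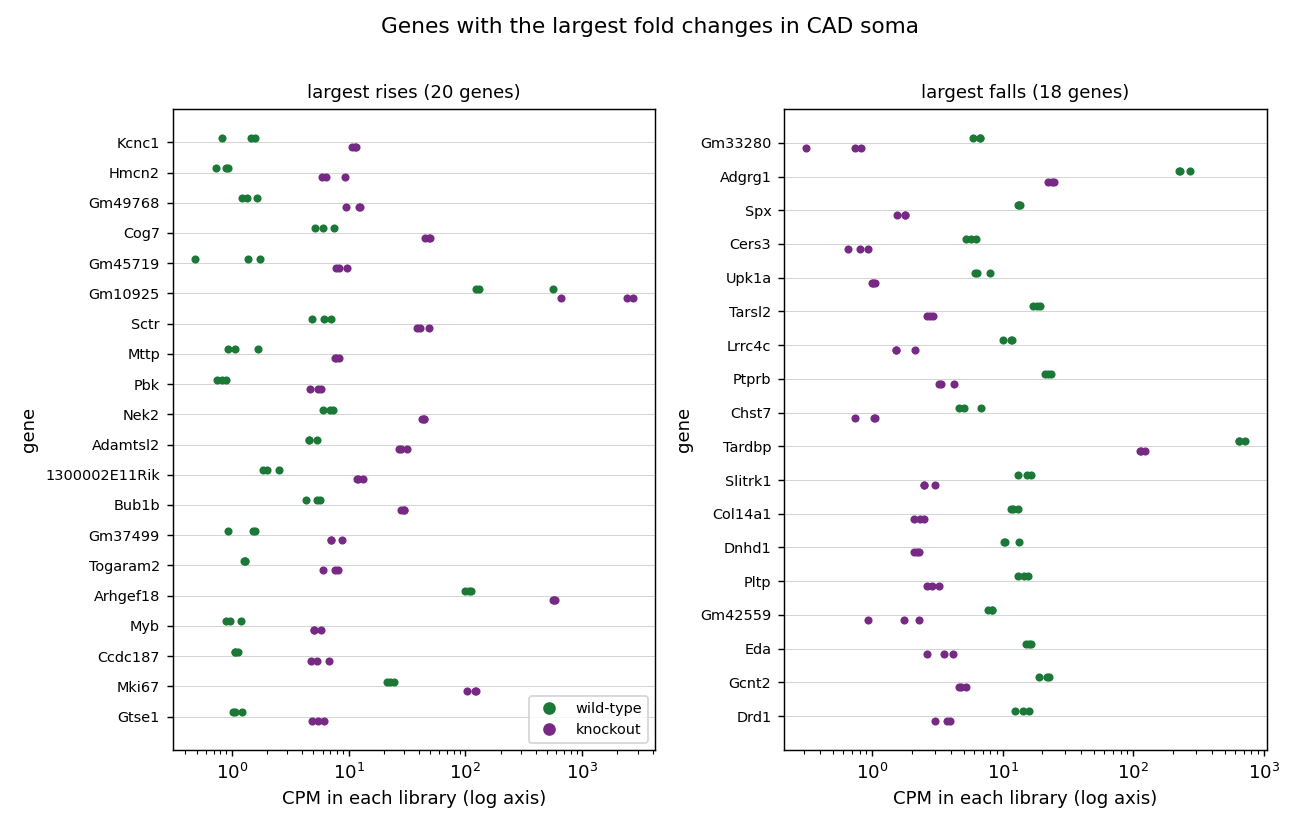
CPM in each library, on a log axis, of the largest rises (left, 20 genes) and largest falls (right, 18 of the 20 genes) among called genes with a mean of at least 5 CPM in the higher group, with wild-type libraries in green and knockout libraries in purple. The groups are apart for every gene shown, and the wild-type libraries of Gm10925 span 122 to 567 CPM.

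In reads gained or lost, a scale that favours abundant and long transcripts, other genes led. Chgb, which encodes the secretory granule protein chromogranin B, rose from 3179, 3795 and 3625 CPM to 6994, 8622 and 6876 CPM (log2 fold change 1.09, SE 0.110, adjusted p = 4.64e-05). Nos1, the neuronal nitric oxide synthase, rose from 424, 429 and 396 CPM to 1363, 1378 and 1298 CPM (adjusted p = 1.87e-07), with the knockout libraries close together. Among the falls, Disp2, a dispatched family membrane protein, went from 940.3, 978 and 1075 CPM to 477, 488 and 473 CPM, a 2.08-fold lower level (adjusted p = 3.47e-06). Actb, β-actin, fell from 2721, 2529 and 2767 CPM to 1881, 1886 and 2012 CPM (log2 fold change -0.47, adjusted p = 0.000833). Scd2, a fatty acid desaturase, fell by 0.41 on the log2 scale and lost its call without wild-type replicate 3 (adjusted p = 0.0151). The unclassified transcript Gm42860 fell by 0.32, and its call was lost in 8 alternatives, among them each of the 6 that left out 1 library (adjusted p = 0.0108 to 0.05001).

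Cell cycle genes were tested as a mitosis list and a DNA replication list. For these and every list that follows, the shares among all genes tested were 10.5% higher and 10.6% lower. All 33 mitosis genes rose in knockout soma, with a median log2 fold change of 1.78 against 0.00 for all genes tested, and their groups did not overlap for any of the 33 (45.2% of all genes). Their summed level was 193, 174 and 187 CPM in the wild-type libraries and 693, 709 and 681 CPM in the knockout libraries. All 33 also passed without replicate 1 of both groups. Top2a, the topoisomerase that untangles sister chromatids, went from 21.7, 21.3 and 20.5 CPM to 74.1, 72.9 and 70.3 CPM (log2 fold change 1.78, SE 0.0600, adjusted p = 7.30e-08). Mki67, which encodes the proliferation marker Ki-67, went from 24.4, 21.4 and 22.8 CPM to 120.1, 122 and 102 CPM (log2 fold change 2.33, adjusted p = 9.13e-08). For both genes the libraries of a group lay within a narrow band. Ccnb1 and Ccna2, the mitotic cyclins B1 and A2, rose by 2.24 and 2.21, Plk1, a kinase of mitotic entry, by 1.83, and Bub1b, a spindle checkpoint protein, by 2.51. Outside the list, the kinase gene Nek2 went from 6.87, 6.04 and 7.30 CPM to 44.4, 42.3 and 43.9 CPM. In RNA pooled from many cell bodies, a larger share of dividing cells and more RNA of these genes per cell cannot be told apart.

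For DNA replication, of 33 tested, 22 were higher and none lower, with a median of 0.56, and the summed level went from 561, 536 and 564 CPM to 803, 836 and 806 CPM. Without replicate 1 of both groups, 18 of the 33 were higher. Cdc45, a helicase component, rose from 2.15, 1.74 and 2.09 CPM to 7.25, 7.71 and 7.53 CPM (log2 fold change 1.91, SE 0.136, adjusted p = 4.61e-06). The MCM helicase subunits Mcm5, Mcm3 and Mcm2 rose by 1.65, 1.40 and 1.16, and Pole, the leading strand polymerase, by 1.44. The 11 members that did not pass all had log2 fold changes above 0.

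**Figure D3:**
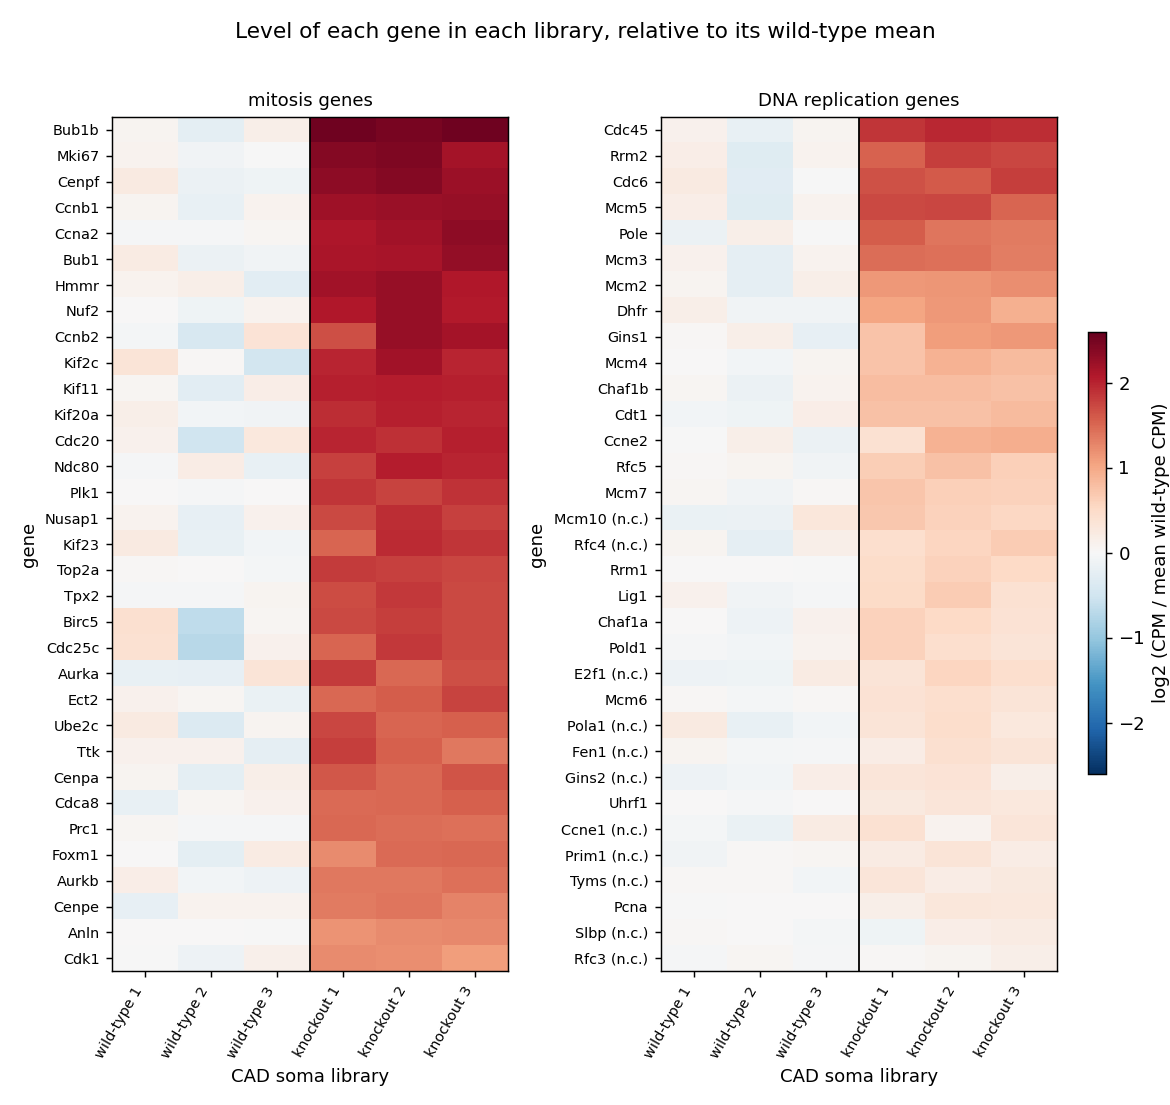
Heat maps of log2 CPM relative to the wild-type mean for the 33 mitosis genes (left) and 33 DNA replication genes (right) in the 3 wild-type and 3 knockout CAD soma libraries, with n.c. marking genes not called. All 33 mitosis genes lie above the wild-type mean in all 3 knockout libraries, and 22 of the 33 replication genes were called higher.

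Promoters of list members and of all tested genes were searched in RefSeq windows of 300 bases around the transcription start (GRCm38.p6), which matched 11441 tested genes. The motifs, searched on both strands and none contained in another, were TTTGAA (the cell cycle genes homology region, CHR), TTTGGCGC and TTTCCCGC (E2F), CCAAT, TGATGNAA (ATF4), and the sterol, heat shock and p53 elements. CHR and CCAAT were added after seeing the data. A CHR was found in 21 of 27 mitosis promoters (77.8%), in 14.8% of tested genes and in 20.2% of all 27025 promoters. The CCAAT letters were in the same number, 21 of 27, against 43.1% of tested genes. E2F letters were in 9 of 27 DNA replication promoters (33.3%) and in none of the 27 mitosis promoters, against 3.23% of tested genes. Among all called genes the shares were nearer the background, with a CHR in 18.3% of the higher and 11.1% of the lower. The promoters of Top2a and Mki67, with the CHR letters of either strand in capitals, and of Mcm3, with E2F letters in capitals, are shown, since they carry the letters that most members of a list, or 9 of 27 members, shared.
Top2a: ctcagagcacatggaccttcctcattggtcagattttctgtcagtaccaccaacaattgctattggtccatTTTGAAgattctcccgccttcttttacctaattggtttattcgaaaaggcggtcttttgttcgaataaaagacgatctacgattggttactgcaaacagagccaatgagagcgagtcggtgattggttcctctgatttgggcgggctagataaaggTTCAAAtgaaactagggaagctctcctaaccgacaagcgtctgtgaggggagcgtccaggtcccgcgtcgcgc
Mki67: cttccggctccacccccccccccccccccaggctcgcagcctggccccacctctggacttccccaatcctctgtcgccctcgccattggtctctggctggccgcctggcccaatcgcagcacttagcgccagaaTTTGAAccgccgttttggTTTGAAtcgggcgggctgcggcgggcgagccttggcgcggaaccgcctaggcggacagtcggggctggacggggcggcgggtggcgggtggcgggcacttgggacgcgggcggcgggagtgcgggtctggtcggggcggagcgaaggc
Mcm3: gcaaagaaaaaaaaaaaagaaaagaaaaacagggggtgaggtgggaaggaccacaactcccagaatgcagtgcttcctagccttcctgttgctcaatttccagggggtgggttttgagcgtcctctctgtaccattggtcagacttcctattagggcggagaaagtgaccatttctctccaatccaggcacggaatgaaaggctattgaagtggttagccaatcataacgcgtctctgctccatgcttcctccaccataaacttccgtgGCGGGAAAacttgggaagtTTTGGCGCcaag
They lie at chr11:99024140-99024439, chr7:135716330-135716629 and chr1:20820263-20820562, each on the minus strand, and each holds 2 matches. A match of letters is a description and does not show binding. Here and below, the shares describe lists whose members were chosen from general knowledge, so they do not bear on the changes. The heat shock list, for instance, held its element in 4 of 13 promoters, while 1 of its 17 tested members was called.

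Genes of the endoplasmic reticulum's protein folding machinery went the other way. Of 19 genes of the unfolded protein response tested, 10 fell and none rose (median -0.34). Their summed level was 5149, 5544 and 5831 CPM in wild-type and 4282, 4754 and 4671 CPM in knockout libraries. Sel1l, an adaptor of the complex that removes misfolded proteins, fell from 52.4, 54.5 and 58.3 CPM to 31.8, 33.9 and 32.6 CPM (log2 fold change -0.75, SE 0.0651, adjusted p = 1.66e-05). The disulfide isomerase Pdia4 fell by 0.51, the co-chaperone Dnajb11 by 0.55 and the chaperone Hsp90b1, from 623, 681 and 701 CPM to 436, 504 and 484 CPM, by 0.49. The count depended on single libraries, with 5 members lower without wild-type replicate 3 and 6 without wild-type replicate 2, knockout replicate 1 or knockout replicate 2. With DESeq2, or without wild-type replicate 3, 1 member was higher.

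Of 24 enzymes of cholesterol synthesis tested, 11 were lower and 1 higher (median -0.27), and with DESeq2 17 were lower. Acat2, which makes acetoacetyl-CoA, fell from 321, 314 and 319.9 CPM to 198, 201 and 203 CPM, with no overlap and little spread (log2 fold change -0.66, SE 0.0521, adjusted p = 8.38e-06). The sterol enzymes Tm7sf2 and Hsd17b7 fell by 0.92 and 0.64. Mvk, mevalonate kinase, was the member that rose, from 4.99, 4.02 and 4.36 CPM to 9.78, 10.2 and 10.1 CPM (log2 fold change 1.17, adjusted p = 2.55e-05). The list holds targets of sterol regulation. The sterol element letters were found in none of its 17 matched promoters, and in only 28 of 11441 tested genes (0.245%). Letters this rare cannot tell sterol targets from other genes in a list of 17 promoters, so their absence says nothing about sterol regulation of the list. CCAAT letters were more common. They were in 16 of the 17 cholesterol synthesis promoters and in 15 of 16 promoters of the unfolded protein response list, against 43.1% of tested genes. The promoter of Sel1l, with its 4 CCAAT matches in capitals, lies at chr12:91849108-91849407, minus strand.
Sel1l: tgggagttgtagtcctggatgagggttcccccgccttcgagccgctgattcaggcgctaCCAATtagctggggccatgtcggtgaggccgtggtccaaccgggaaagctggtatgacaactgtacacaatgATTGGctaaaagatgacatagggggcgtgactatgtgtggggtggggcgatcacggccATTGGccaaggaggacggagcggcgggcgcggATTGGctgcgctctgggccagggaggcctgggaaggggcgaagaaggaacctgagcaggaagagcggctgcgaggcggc

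Glycolytic and hypoxia-responsive genes were lower in 20 of 37 cases and higher in 4 (median -0.30). Slc2a3, a glucose transporter gene, fell from 543, 536 and 558 CPM to 262, 255 and 280.2 CPM (log2 fold change -1.04, SE 0.0622, adjusted p = 1.63e-06), and its relative Slc2a1 fell from 48.2, 45.1 and 49.3 CPM to 19.4, 19.5 and 23.97 CPM (adjusted p = 8.38e-06). Slc16a3, which exports lactate, fell by 1.07, the collagen hydroxylase P4ha1 by 0.78 and the aldolase Aldoc by 0.64. Fewer members were lower, 14, without replicate 1 of both groups. The 4 that rose numbered 0 without knockout replicate 2 or knockout replicate 3, 1 without wild-type replicate 1 or 3 and 2 without wild-type replicate 2.

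Genes of lysosomes and autophagy also leaned down, with 17 of 45 lower and 4 higher (median -0.18). Ctsl, the protease cathepsin L, fell from 509, 531 and 599 CPM to 279, 313 and 308 CPM (log2 fold change -0.86, SE 0.0792, adjusted p = 2.34e-05). The lysosomal channel gene Mcoln1 fell by 0.62. Leaving out any 1 library other than wild-type replicate 1 left 10 or 11 lower, as did length-scaled counts (11). Those that rose numbered 7 without knockout replicate 1 and 2 without knockout replicate 2 or 3.

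Genes for signal reception at the cell surface fell more often than they rose. Of 27 receptor subunits for glutamate, GABA and acetylcholine, 11 were lower and 1 higher (median -0.39), with 7 lower without wild-type replicate 2. Chrna3, the α3 nicotinic subunit, had 559, 697 and 685 CPM in wild-type and 213, 251 and 248 CPM in knockout libraries (log2 fold change -1.45, SE 0.0995, adjusted p = 3.78e-06). The muscarinic receptor Chrm3 fell by 1.78. Chrna7, the α7 nicotinic subunit, rose from 3.34, 2.05 and 3.26 CPM to 9.58, 8.92 and 7.43 CPM (adjusted p = 0.00012), opposite to its relatives. Voltage-gated channels were lower in 15 of 43 cases and higher in 4 (median -0.23). This count moved to 5 with length-scaled counts, to 9 without wild-type replicate 1, to 6 without wild-type replicate 2 or knockout replicate 2 and to 8 without knockout replicate 3. Beside Kcnc1, the potassium channel gene Kcna4 rose from 7.57, 8.70 and 8.06 CPM to 22.5, 21.4 and 20.9 CPM (adjusted p = 1.69e-06) and the calcium channel gene Cacna1i by 0.68, while the ERG channel gene Kcnh2 fell by 0.70.

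Matrix, adhesion and guidance genes changed in both directions, beside 10.5% higher and 10.6% lower among all genes tested. Of 42 matrix and adhesion genes, 18 fell and 6 rose (median -0.25), and without replicate 1 of both groups 17 fell and 6 rose. Vcan, the proteoglycan versican, fell from 193, 203 and 198 CPM to 71.7, 69.3 and 68.8 CPM (log2 fold change -1.50, SE 0.0518, adjusted p = 7.39e-08). Sparc, a secreted collagen-binding protein, fell from 175, 208 and 237 CPM to 49.7, 56.6 and 58.1 CPM (adjusted p = 1.04e-06), and Itga9, an integrin subunit, fell by 1.31. The fibroblast markers summed to 32.6 to 41.2 CPM in wild-type and 16.4 to 16.7 CPM in knockout libraries. Of these markers Thy1 and S100a4 were called lower, and Col1a1 and Col1a2 were not called (adjusted p = 0.382 and 0.852). The part of fibroblast-like cells in the matrix falls was not tested. The proteoglycan gene Spock2 rose from 248, 247 and 266 CPM to 543, 556 and 537 CPM and the integrin gene Itgb3 by 1.40. Axon guidance genes were lower in 10 of 39 cases and higher in 3 (median -0.27), with 6 lower without wild-type replicate 2 or 3 or knockout replicate 2. The repellents Slit1 and Slit3 both rose. Slit1 went from 5.95, 6.04 and 6.995 CPM to 25.2, 27.99 and 28.8 CPM (log2 fold change 2.11, adjusted p = 3.33e-07), and Slit3 rose by 1.07. The ephrin receptor Ephb4 fell by 0.77.

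Genes of the neuronal phenotype did not move as a block. Catecholaminergic genes split into 6 higher and 5 lower of 23 tested. Dbh, which makes noradrenaline, rose from 23.8, 31.9 and 32.7 CPM to 76.5, 87.7 and 71.9 CPM (log2 fold change 1.42, adjusted p = 1.32e-05), and the transcription factor Gata2 rose by 0.95. Slc18a1, the vesicular monoamine transporter of neuroendocrine cells, fell from 41.8, 48.6 and 49.5 CPM to 20.2, 19.6 and 21.2 CPM (adjusted p = 4.09e-06). The prohormone convertase Pcsk2 fell by 1.32 and the transcription factor Isl1 by 0.94. Without wild-type replicate 2 or knockout replicate 3, 3 of the 23 were lower. Presynaptic genes gave 9 higher and 7 lower of 35. Unc13a, a priming factor of synaptic vesicles, rose from 112, 101 and 85.2 CPM to 364, 315 and 295 CPM (log2 fold change 1.71, SE 0.106, adjusted p = 1.97e-06). The vesicle GTPase gene Rab3c, which carries a GU run shown above, rose from 38.5, 39.7 and 30.6 CPM to 91.5, 100.2 and 106 CPM (log2 fold change 1.45, adjusted p = 3.14e-06). Rimbp2, which tethers calcium channels, rose by 0.90, and the active zone gene Rims1 fell by 0.99. Of 33 genes of the neuronal cytoskeleton, 6 rose and 7 fell. Those that rose numbered 3 without knockout replicate 2 or 3, and those that fell 4 without wild-type replicate 3 and 11 with DESeq2. Mapt, which encodes tau, fell from 479, 514 and 481 CPM to 281, 286 and 271 CPM (adjusted p = 6.00e-06), and Map1a by 0.52. Stmn4, a stathmin, rose by 1.07 and the kinesin gene Kif5a by 0.57.

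Of 16 genes reported to take up cryptic exons in mouse cells without TDP-43, 7 fell and 2 rose. Mib1, a ubiquitin ligase of Notch signalling, fell from 157, 141 and 137 CPM to 40.8, 37.3 and 37.6 CPM (log2 fold change -1.91, SE 0.0692, adjusted p = 9.13e-08). Tecpr1, an autophagy factor, fell from 54.7, 55.7 and 57.2 CPM to 20.9, 16.6 and 15.3 CPM (adjusted p = 2.12e-06). Washc4, Synj2bp and Usp15 fell by 1.25, 1.16 and 1.08, and Ift81, an intraflagellar transport gene, rose by 1.01. Use of the cryptic exons themselves was not analysed here. Of 17 other genes reported to depend on TDP-43, 4 rose and 3 fell. Grn, which encodes progranulin, rose from 69.5, 70.98 and 81.6 CPM to 179, 191 and 185 CPM (log2 fold change 1.32, SE 0.0689, adjusted p = 7.07e-07), and its sorting receptor Sort1 rose by 0.75. Stmn2, whose human transcript is cut short by a cryptic exon, fell from 374, 378 and 386 CPM to 248, 287 and 271 CPM (log2 fold change -0.50, adjusted p = 0.000276). Among 38 ALS and FTD genes, 11 rose and 5 fell, Tardbp included. Of 28 hnRNP genes, 5 rose and 2 fell, beside 10.5% and 10.6% of all genes tested. The list's log2 fold changes lay between -0.43 and 0.57. These counts were small and unstable: 2 rose without any 1 library other than knockout replicate 1, and among the falls none was left without wild-type replicate 2 or knockout replicate 2 or 3 and 1 without wild-type replicate 3 or knockout replicate 1.

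Of 82 cytosolic ribosomal protein genes, 4 rose and none fell, although 78 had a log2 fold change above 0 (median 0.17), and the number that rose was 24 with DESeq2, 9 without replicate 1 of both groups and 1 without wild-type replicate 1 or 2 or knockout replicate 2 or 3. Nuclear-encoded respiratory chain genes gave 7 higher and 3 lower of 83, with 2 higher without wild-type replicate 1 or knockout replicate 2, 3 without knockout replicate 3, 4 without wild-type replicate 2 and 11 with DESeq2. Proteasome subunits gave 1 higher and 2 lower of 38, with 1 lower without any 1 library and none higher without wild-type replicate 2 or knockout replicate 2 or 3. Psmd4, a ubiquitin receptor of the proteasome, was the larger fall, from 101, 97.04 and 104.1 CPM to 53.6, 59.4 and 55.01 CPM (adjusted p = 3.99e-06). Mitochondrial ribosomal proteins gave 5 higher and 4 lower of 78, beside 10.5% and 10.6% of all genes tested, and Mrps35 rose by 1.16. Of these, 1 was higher without knockout replicate 2 and 2 without knockout replicate 3, and 2 were lower without wild-type replicate 3 or knockout replicate 2. None of 13 mitochondrially encoded genes passed, and their sum varied from 39909 to 70304 CPM over the 6 libraries. Without replicate 1 of both groups 6 of the 13 were higher, and without wild-type replicate 2 or knockout replicate 1, 4.

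**Figure D4:**
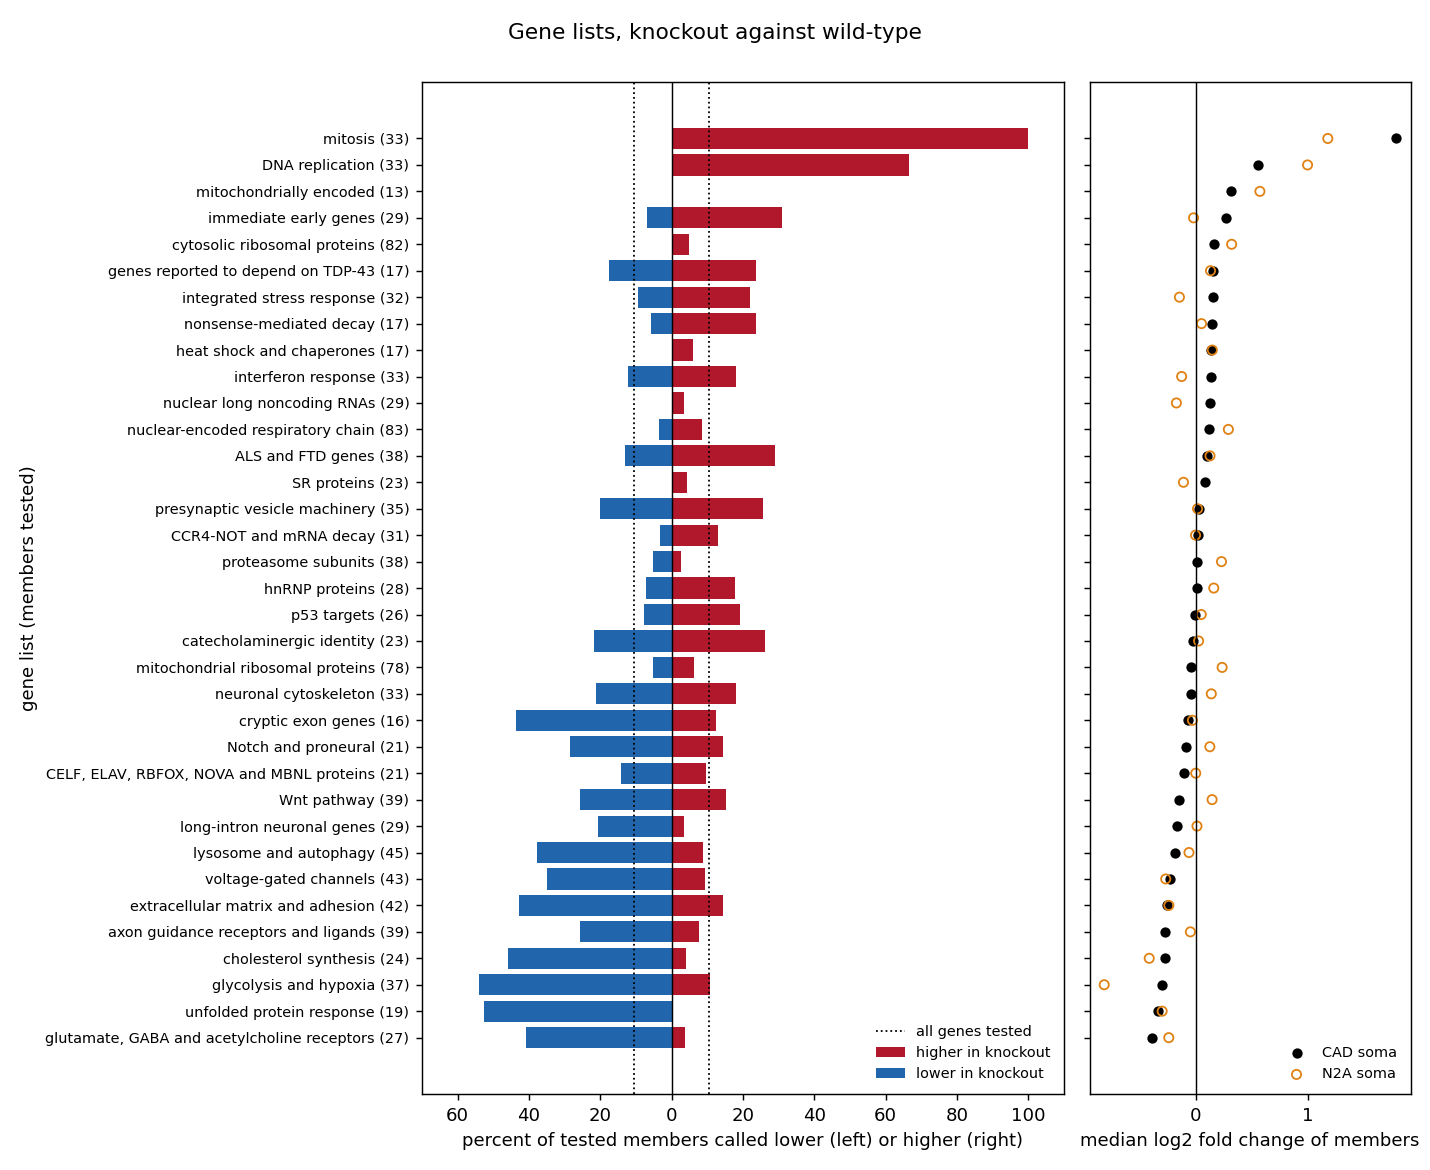
Left, percent of tested members called lower (blue) or higher (red) for 35 gene lists, with dotted lines at the shares of all genes tested, 10.6% and 10.5%, and the number tested in brackets. Right, the median log2 fold change of each list in CAD soma (filled) and N2A soma (open), with mitosis and DNA replication farthest to the right in both lines.

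The calls were then set against what the genes' transcripts hold. The motifs UGUGU and GUGUG and GUAUG were searched in 13489 protein-coding genes, each by the longest of its annotated 3′ UTRs, of which 12.4% were higher and 12.9% lower. The share higher went up with motif density, from 9.31% of genes with none to 16.5% at over 10 to 20 motifs per kb, 25.9% at over 20 to 30 and 30.8% above 30 (53 of 172 genes, 95% Wilson interval 24.4% to 38.1%). The share lower was 11.2% with none and 14.1%, 12.6% and 11.2% at over 0 to 5, 5 to 10 and 10 to 20 per kb. It was 9.88% and 7.56% in the 2 densest classes, the last being 13 of 172 genes (interval 4.47% to 12.5%). The 414 genes with a GU run of at least 30 bases were higher in 26.6% of cases (110 genes, interval 22.5% to 31.0%) and lower in 9.66% (40 genes). With no run above 5 bases, 9.96% were higher and 12.5% lower. The share higher did not climb steadily with run length, with 16.2% at 10 to 19 bases and 13.2% at 20 to 29 bases (25 of 190 genes). Intervals cover counting error only, genes are not independent replicates, and the classes were chosen after seeing the data. Long runs sit in long 3′ UTRs, a median of 3459 bases against 608 bases with no run above 5 bases. From the 20% of genes with the shortest to the 20% with the longest 3′ UTR, the share higher went from 10.9% to 14.3% and the share lower from 10.7% to 15.6%. Among the genes with the longest runs, Diaph3, a formin of actin assembly, rose from 3.40, 2.42 and 2.54 CPM to 12.5, 11.9 and 13.8 CPM (log2 fold change 2.19, adjusted p = 2.15e-06). St3gal5, a ganglioside sialyltransferase, rose by 1.90, the kinetochore gene Nsl1 by 1.86 and the sialyltransferase gene St6galnac5 by 1.79. A run did not fix the direction: Adam19, a membrane metalloprotease, fell from 41.4, 42.5 and 42.8 CPM to 18.7, 19.1 and 19.4 CPM (log2 fold change -1.15, adjusted p = 1.34e-06), and the cadherin gene Cdh6 fell by 1.41.

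**Figure D5:**
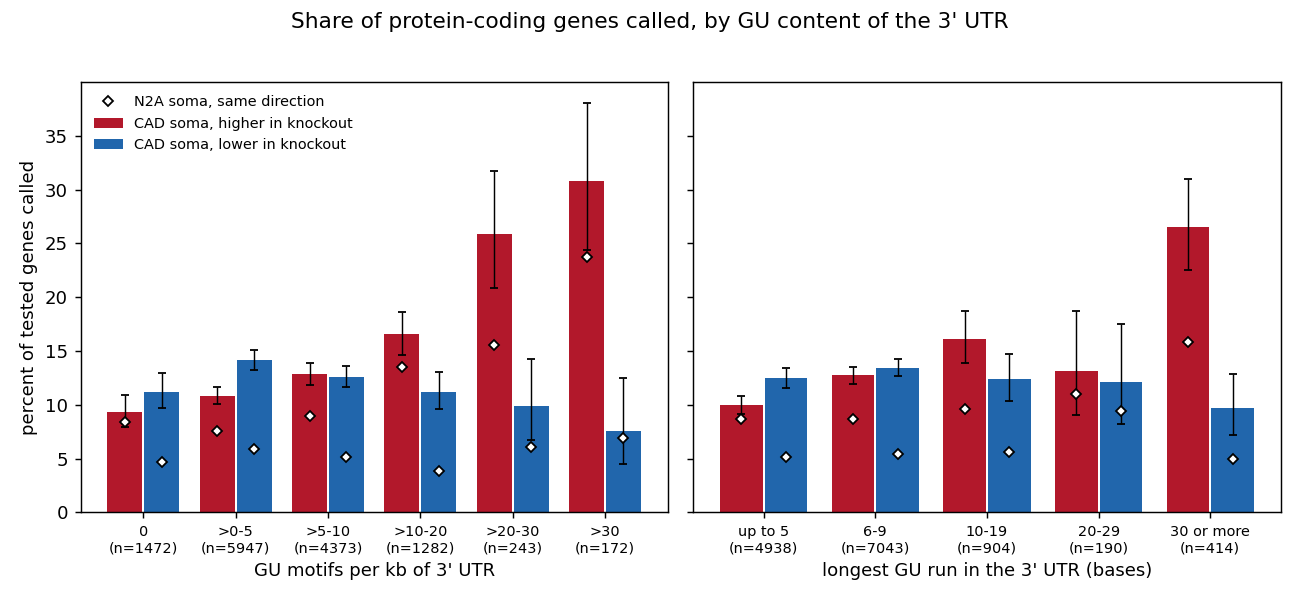
Percent of tested protein-coding genes called higher (red) or lower (blue) in CAD soma by GU motifs per kb of 3′ UTR (left) and by the longest GU run (right), with 95% Wilson intervals, the number of genes under each class and N2A soma as diamonds. Red bars climb with density to 30.8%, and by run length they reach 16.2%, drop to 13.2% at 20 to 29 bases and reach 26.6% at 30 bases or more, while blue bars stay between 7.56% and 14.1%.

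Gene length went with being called at all. In the shortest 20% of genes 5.93% were higher and 10.5% lower, and in the longest 20%, 17.02% and 17.39%. Expression went with it as well: a median mean level of 12.1 CPM in the shortest and 32.97 CPM in the longest 20%, and 5.23% higher and 4.14% lower in the 20% of genes with the lowest CPM. The part of depth in the trend with length was not tested. By longest intron, the 20% with the longest held 14.0% higher and 19.5% lower in CAD soma, a lean to falls that total length did not show. N2A soma, described below, did not show this lean. Of 29 neuronal genes known for long introns, 6 fell and 1 rose, with 3 lower without wild-type replicate 2 and 10 with DESeq2. The single rise was lost without wild-type replicate 3 or knockout replicate 1 or 3, and 2 rose without wild-type replicate 1.

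N2A cells, a mouse neuroblastoma line with the same kind of knockout and its own control libraries, gave 1208 genes higher (7.06% of 17104 tested) and 764 lower (4.47%) in soma. Upper-quartile scaling moved this split to 1174 and 1171. These counts also depended on single libraries: 442 were higher without N2A wild-type replicate 2, 419 without knockout replicate 2 and 1988 without knockout replicate 1. The number lower was 211 without N2A wild-type replicate 2, 388 without wild-type replicate 3, 217 without knockout replicate 2 and 432 without knockout replicate 3. Of the genes higher in CAD soma and tested in N2A (1729), 35.6% were higher in N2A and 1.97% lower, and of the genes higher in N2A and tested in CAD (1196), 51.5% were higher in CAD. For falls, 17.2% of the CAD falls tested in N2A (1685) fell there and 3.03% rose, and 39.3% of the N2A falls tested in CAD (738) fell in CAD. The difference of changes between lines passed for 1338 of 19324 genes (6.92%), with CAD minus N2A above 0 for 440 and below 0 for 898. The sign is not the size of a change: a gene that fell further in CAD also counts as below 0. With upper-quartile scaling the split turned to 949 above and 768 below, and leaving out 1 library gave 248 to 548 above and 424 to 1066 below. Among genes called in CAD soma, 330 of the rises and 564 of the falls differed between the lines.

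In N2A 32 of 33 mitosis genes rose (median 1.17), and 9 changes differed between lines, all larger in CAD. For DNA replication 29 of 33 rose in N2A (median 0.99), and 10 changes differed, none larger in CAD. Of 35 glycolysis and hypoxia genes tested in N2A, 23 were lower and none higher (median -0.81), and of 14 whose change differed between lines 13 had the higher value in CAD. Adgrg1 fell by 3.07 in N2A and did not pass the test of a difference (CAD minus N2A -0.37, adjusted p = 0.083), and neither did Nos1, which rose there by 1.78 (-0.16, adjusted p = 0.465). By contrast, Tarsl2 had a log2 fold change of 0.03 in N2A (difference -2.82, adjusted p = 2.51e-07), and Mib1 of -0.03 (difference -1.96, adjusted p = 1.70e-08). Vcan had -0.02 (difference -1.55, adjusted p = 2.46e-05). Of genes with a 3′ UTR, 9.02% were higher and 5.36% lower in N2A. Above 30 motifs per kb 23.8% were higher there, and with a run of at least 30 bases 15.8%. The share lower in N2A showed no steady trend with density. It was 4.67% at no motif and 5.91%, 5.19% and 3.89% at over 0 to 5, 5 to 10 and 10 to 20 per kb. At over 20 to 30 per kb it was 6.03%, and above 30 it was 6.88% (11 of 160 genes). The 20% of genes with the longest introns held 10.7% higher and 5.71% lower in N2A, beside 8.98% and 5.31% of all protein-coding genes. Of the long-intron neuronal genes, 25 were tested in N2A, where 3 rose and none fell.

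Neurites of the same cultures were used only to ask where the change in soma differed, in a test that did not pair the compartments. The difference passed for 75 of 17343 genes (0.432%), 28 of them among the rises and 13 among the falls called in soma. The soma minus neurite difference was above 0 for 36 of the 75 and below 0 for 39, a sign that does not give the size of a change. With DESeq2 it was above 0 for 145 and below for 78. The soma and neurite libraries of a replicate were also left out together. The 36 became 17 and 10 without wild-type replicates 1 and 2, and 18 and 11 without knockout replicates 1 and 2. Diras1, Ksr2 and Wasf3, transcripts the study follows to neurites, were 3 of the 75. In soma Diras1, a small GTPase gene, was at 15.2, 17.4 and 17.8 CPM in wild-type and 17.8, 20.5 and 20.2 CPM in knockout libraries, which did not pass (log2 fold change 0.22, SE 0.0940, adjusted p = 0.112). Wasf3, an actin regulator of the WAVE family, rose in soma from 43.1, 45.8 and 41.5 CPM to 65.4, 65.6 and 67.95 CPM (log2 fold change 0.61, adjusted p = 3.41e-05). Ksr2, a scaffold of Ras signalling, fell in soma from 31.3, 31.96 and 26.03 CPM to 22.7, 19.7 and 21.7 CPM (log2 fold change -0.48, adjusted p = 0.00414), a call lost with length-scaled counts and without wild-type replicate 1 or 2 or knockout replicate 2 or 3 (adjusted p = 0.0135 to 0.0253). In neurites the log2 fold change was 6.17 for Diras1, 5.53 for Wasf3 and 4.34 for Ksr2, and the soma minus neurite differences were -5.95, -4.92 and -4.81 in that order. Cog7 rose in both compartments, by 2.93 in soma and 5.07 in neurites (adjusted p of the difference = 7.56e-07). Tardbp fell further in soma, by 2.52 against 1.88 in neurites (adjusted p of the difference = 0.005).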

How the data were processed

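RNA-seq libraries of CAD soma (3 wild-type, 3 knockout) were analysed, with those of CAD neurites and N2A soma for comparison. The authors trimmed reads with cutadapt and quantified transcripts with Salmon (versions not given in the sources used here). They deposited estimated counts, TPM and effective lengths per transcript and library. Whether counting used strand is not given in the sources used here, so antisense and overlapping genes are uncertain. Transcript estimated counts were summed to genes with GENCODE vM21 (GRCm38), whereas the study's methods name another GENCODE version, and rounded to whole numbers. At most 0.0994% of a library's counts lay on transcripts with no gene in that annotation and were left out. Deposited TPM chose the most abundant transcript and deposited effective lengths gave the length-scaled counts, both for alternatives only. CPM are not per length, so they compare libraries and not genes.

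Genes were filtered with filterByExpr, scaled by TMM and tested with edgeR 4.0.16 (quasi-likelihood test, two-sided, Benjamini-Hochberg FDR of 0.01) in R 4.3.3. TMM factors were 0.969 to 1.03, and the common biological coefficient of variation was 0.104. DESeq2 1.42.0, other scalings, other filters and leaving out each library were alternatives. On simulated data for the 17010 CAD soma genes, with 50 genes changed at each size, the test recovered 40 at a log2 fold change of -1, 17 at -0.5, 22 at 0.5 and 45 at 1, with 2 false calls. Gene lists and members were chosen with earlier results of these data known. Genes named are Tardbp, Diras1, Ksr2 and Wasf3, the 20 largest called rises and falls with non-overlapping groups and at least 5 CPM in the higher group, the 5 largest changes in CPM each way and up to 6 members of a list with the smallest adjusted p, and some genes that the rule names are not reported here. Genes with long GU runs, the promoters shown and the CHR and CCAAT motifs were chosen after values were seen. Promoters came from RefSeq (GRCm38.p6). Figures were drawn with matplotlib 3.10.9.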

Additional observations from a re-analysis of the deposited data

Results flagged for a closer look

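Groups of 3 libraries were not tested for outlying samples. Results are listed here because the change in CAD soma differed from that in another comparison by edgeR's quasi-likelihood test of the interaction (FDR of 0.01, 3 libraries a group). Each value is a difference of log2 fold changes, CAD soma minus N2A soma unless neurites are named.

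Among the largest rises, the difference was 2.38 for 1300002E11Rik, 2.38 for Gm37499, 2.27 for Sctr, 1.96 for Togaram2, 1.71 for Gm49768 and 1.70 for Ccdc187. It was 1.36 for Adamtsl2, 1.23 for Cog7, 1.12 for Mttp and 1.097 for Arhgef18. The mitotic genes had differences of 1.27 for Bub1b, 1.26 for Nek2, 1.24 for Gtse1, 1.106 for Mki67 and 0.83 for Ccnb1. Among the largest falls, the difference was -2.82 for Tarsl2, -2.22 for Pltp and -1.80 for Dnhd1. It was -1.68 for Gcnt2, -1.32 for Col14a1, -0.78 for Tardbp and -0.58 for Disp2. The difference for Spx was 1.17, a fall larger in N2A.

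Surface, matrix and guidance genes gave -1.78 for Chrm3, -1.19 for Chrna3, -1.55 for Vcan, -1.45 for Sparc and -2.19 for Cdh6. Differences above 0 were 1.66 for Slit1, 0.63 for Cacna1i and 0.59 for Spock2. Adam19 had -1.49, Notch2 -1.69 and Fzd7 -1.48. Neuronal genes gave 1.34 for Dbh, 1.106 for Unc13a, -1.44 for Pcsk2, -1.03 for Isl1, -0.97 for Slc18a1 and -0.62 for Mapt. RNA-binding and TDP-43-linked genes gave -1.96 for Mib1, -1.29 for Synj2bp, -1.12 for Usp15, 0.72 for Ift81 and -0.93 for Celf4, and Ksr2 gave -1.62. Metabolic and degradation genes gave -0.56 for Hsd17b7, 0.72 for Slc16a3, 0.70 for P4ha1, -0.89 for Ctsl, -0.50 for Mcoln1 and -1.004 for Psmd4. Stress and early response genes gave 1.69 for Atf3, 1.64 for Rsad2 and 0.53 for Btg2.

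Against CAD neurites, the soma minus neurite difference was -5.95 for Diras1, -4.92 for Wasf3, -4.81 for Ksr2, -2.13 for Cog7 and -1.85 for Spock2. It was -0.63 for Tardbp, 0.85 for Mki67 and 0.55 for Usp15. Soma and neurite libraries came from the same cultures.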

How the results depend on the processing

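No named gene changed direction, but the split between lines turned with upper-quartile scaling (949 with CAD minus N2A above 0, 768 below) and that between compartments, which was near even (36 and 39), with DESeq2, with RLE scaling, without a filter, without knockout replicate 3 and at an FDR of 0.05. Of 2046 alternative values for 128 named genes, 2027 kept their direction and side of the threshold and 19 lost the call, all of them of Gm10925, Gm42860, Ksr2 and Scd2. Of 1120 list counts, 907 stayed within 1.5 times the main count. At an FDR of 0.05, CAD soma gave 2745 higher and 2820 lower, N2A 2479 and 1925, the difference between lines 1021 above 0 and 2114 below, and that between compartments (soma minus neurite) 100 above and 70 below. Leaving out libraries gave 1142 to 1656 higher and 1148 to 1583 lower in CAD, 419 to 1988 and 211 to 1085 in N2A, 248 to 548 above and 424 to 1066 below 0 between lines, and 10 to 36 above and 26 to 41 below between compartments. With DESeq2, N2A gave 2058 higher and 1225 lower, the lines 1482 below 0, and the compartments 145 above and 78 below. Without a filter, N2A gave 2583 higher, the lines 1564 below 0, and the compartments 163 above and 117 below. Length-scaled counts gave 450 lower in N2A, 269 above and 483 below 0 between lines, and 22 above between compartments. Upper-quartile scaling gave 1171 lower in N2A, a minimum of 10 counts in every library 817 above 0 between lines, and a model with the neurite libraries 1955 higher in N2A. The cause of these moves was not tested.

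Replicate numbers are shared by the groups, but deviations from the group means correlated at 0.508, 0.0921 and 0.281 for numbers 1, 2 and 3, and knockout replicate 2 correlated best with wild-type replicate 3 (0.294), so the numbers were not taken to pair the libraries. With the replicate block, CAD soma gave 2499 higher and 2607 lower, N2A 2489 and 2074, and the lines 1008 above 0 and 2142 below. For the compartments the block joined soma and neurite libraries of the same genotype and replicate number, which gave 31 above 0 and 40 below.

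By longest intron, 14.0% of the top 20% were higher and 19.5% lower, and by sign alone 49.2% of the longest genes lay above 0 and 50.8% below. For the 20% densest in GU motifs (17.05% higher, 10.86% lower), 55.2% lay above 0 and 44.8% below, and by number of motifs 14.2% were lower. Depth limits the 20% of genes with the lowest CPM, in which 5.23% were higher and 4.14% lower.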

Other observations

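Lists of stress and signalling genes held calls in both directions, beside 10.5% higher and 10.6% lower among all genes tested. Of 29 immediate early genes, 9 rose and 2 fell (median 0.27). Btg2, an antiproliferative gene, rose from 20.3, 21.2 and 20.6 CPM to 36.6, 36.8 and 37.2 CPM (log2 fold change 0.83), and Jun, a subunit of the AP-1 transcription factor, rose by 0.55. Bdnf, the neurotrophin gene, fell from 13.5, 16.2 and 15.8 CPM to 4.48, 5.63 and 5.28 CPM (log2 fold change -1.56, adjusted p = 5.28e-06 by edgeR's quasi-likelihood test). Of 33 interferon response genes, 6 rose and 4 fell, with 2 higher without wild-type replicate 2 or 3, 3 higher without knockout replicate 2 or 3 and 2 lower without knockout replicate 2 or 3. Cxcl10 and Rsad2 rose by 2.82 and 1.99, with knockout libraries at 1.83, 1.38 and 1.88 CPM and 2.10, 2.04 and 2.89 CPM, while the class I gene H2-K1 fell by 0.63. Of 32 genes of the integrated stress response, 7 rose and 3 fell (median 0.15), and Atf3 rose by 0.90. Without knockout replicate 2, 4 of the 32 were higher. ATF4 letters were in 10 of 27 of its promoters and in 2.93% of tested genes. Of 26 p53 targets, 5 rose and 2 fell, and 1 of 20 promoters held the p53 element. This p53 list holds Gtse1, described above with the mitotic genes, and Btg2, named above with the immediate early genes. The number higher was 3 without wild-type replicate 2 or 3 or knockout replicate 3. The number lower was 1 without wild-type replicate 2 or knockout replicate 1 or 3. Of 17 heat shock genes, Hspb8, a small heat shock protein, was the one that passed (log2 fold change 1.08), 2 were higher without wild-type replicate 3 or knockout replicate 1 and 6 with DESeq2, and 4 of 13 promoters held the heat shock element against 0.551% of tested genes. Of 39 Wnt pathway genes, 6 rose and 10 fell, the receptor gene Fzd7 by 1.67. The falls numbered 2 without wild-type replicate 2, 3 without knockout replicate 2 and 6 without wild-type replicate 1 or 3 or knockout replicate 3. Of 21 Notch and proneural genes, 3 rose and 6 fell, the receptor gene Notch2 from 139, 132 and 142 CPM to 53.8, 51.3 and 46.3 CPM. The falls numbered 2 without wild-type replicate 2 or 3 and 3 without any 1 knockout library.

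Lists of RNA regulators held 0 to 4 calls in each direction, beside 10.5% higher and 10.6% lower among all genes tested. Of 17 genes of nonsense-mediated decay, 4 rose and 1 fell, and Dhx34 and Upf3a rose by 1.80 and 1.01. Of 31 genes of mRNA deadenylation and decay, 4 rose and 1 fell, with 2 higher without any 1 library other than wild-type replicate 3 and none lower without any 1 other than knockout replicate 3. Of 23 SR proteins and their kinases, 1 rose and none fell, and 2 rose without wild-type replicate 2. Of 21 CELF, ELAV, RBFOX, NOVA and MBNL genes, 2 rose and 3 fell, and Celf4 rose from 47.9, 53.8 and 51.99 CPM to 118, 139 and 138 CPM. The number higher was 1 without wild-type replicate 1 or 3 or knockout replicate 2 or 3, and the number lower was 1 without wild-type replicate 2 or knockout replicate 3. Of 29 nuclear long noncoding RNAs, 1 rose and none fell, and 2 rose without wild-type replicate 3.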
